A study of Mus musculus with 4 samples.

Results

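The 84 mouse genes for the proteins of the cytosolic ribosome were taken from 21887 protein-coding genes of the RefSeq annotation by their symbols, Rpl or Rps with a number and at most a short suffix such as a, x or l, beside Rpsa, Rplp0, Rplp1 and Rplp2. They lie on 19 chromosomes, 14 of them on chromosome 7. Their H3K27ac, a histone mark of active promoters and enhancers, was measured by chromatin immunoprecipitation and sequencing in C57BL/6 bone marrow cells labelled CD45.2+. Both groups are described as cKit(+), that is, positive for the stem cell factor receptor. The control group has no further allele in its labels, and the BN1 group carries BRD9-NUTM1, a leukaemia fusion of a chromatin remodeller subunit with a testis protein that binds an acetyltransferase. No treatment was given in either group. Age and the promoter that drives the fusion were not stated in these sources.

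Of 4 samples in the labels, 2 have a peak list, 1 per group, and without replicates no difference could be tested. The peak names inside the lists begin with BRNU in the control list and BM in the BN1 list, which goes against the labels if BRNU stands for the fusion. The extract protocol names BN1 cells for every sample. The control list and the BN1 list are named by their labels, and directions hold for those labels only. The control list covered 31.0 Mb and the BN1 list 19.1 Mb, a ratio of 1.62, and read depth is unknown. Ptprc, the gene of CD45, had a peak at a gene end in both lists, whereas Kit had no peak within 10 kb in either. Among 28 marker genes of blood and other tissues, Cd34 and Meis1 had an end region in the control list alone. S100a9, Cd79b, Pax5, Ebf1, Klf1 and Hba-a1 had one in the BN1 list alone, while Mpo, Elane, Gata1, Gata2, Cd3e and Cd8a had no peak within 10 kb in either. The myeloid genes Spi1, Cebpa and Csf1r had one in both lists. Within 10 kb peaks covered 9890, 1613 and 6420 bp around them in the control list and 11921, 1331 and 591 bp in the BN1 list. Around Klf1 they covered 1814 bp in the control list and 2920 bp in the BN1 list. What part the mix of cells has in the values below was not tested.

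Ribosomal proteins bind ribosomal RNA and build the small subunit, which decodes the messenger, and the large subunit, which joins amino acids. Each is encoded by a short, strongly transcribed gene usually with a single expressed copy, and the genome also holds many processed pseudogenes of these genes. Their messengers begin with a terminal oligopyrimidine tract, a cytosine followed by further pyrimidines, through which the mTOR pathway and the binding protein LARP1 control their translation. Loss of 1 copy of several of them impairs red cell production, as in Diamond-Blackfan anaemia and the 5q syndrome.

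RefSeq (GRCm38.p6, the assembly named mm10) lists a start of transcription and its sequence for 64 of the 84 members. The promoter sequences show what the members share beside their acetylation. A run of at least 8 pyrimidines within 30 bases of the start, on the sense strand, was found in 42 of 64 (65.6%), against 26.9% of 17492 protein-coding genes with a listed start. In 17 of 64 (26.6%) against 3.56% the run lay over the start, beginning no later than 1 base after it. Rps27, Rpl35 and Rpl27a are shown as examples with a run over the start and an end region in both lists, Rpl22l1 as a paralogue with the same features and Rpl32l as a member with the run but without an end region. Each sequence runs from 50 bases before the start to 30 bases from it, and capitals mark the run.
Rps27 (chr3:90213619-90213698, minus strand): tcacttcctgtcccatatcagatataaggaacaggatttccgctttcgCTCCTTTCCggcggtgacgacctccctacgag
Rpl35 (chr2:39005102-39005181, minus strand): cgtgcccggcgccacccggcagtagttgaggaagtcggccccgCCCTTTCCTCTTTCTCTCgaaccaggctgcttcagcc
Rpl27a (chr7:109519145-109519224, plus strand): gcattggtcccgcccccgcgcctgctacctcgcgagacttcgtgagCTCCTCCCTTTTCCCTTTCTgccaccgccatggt
Rpl22l1 (chr3:28805458-28805537, plus strand): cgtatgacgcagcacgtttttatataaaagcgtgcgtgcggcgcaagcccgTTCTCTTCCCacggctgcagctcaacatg
Rpl32l (chr10:20208389-20208468, plus strand): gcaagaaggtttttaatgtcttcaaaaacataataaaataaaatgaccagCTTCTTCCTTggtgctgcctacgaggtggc
The run was 9 bases long in Rps27, 18 in Rpl35, 20 in Rpl27a and 10 in both Rpl22l1 and Rpl32l. It was therefore present at members with and without an end region. No such run was found at Rps4x, the only member with a peak within 1000 bp of its listed start in the control list alone, nor at the paralogue Rpl10l, which had none in either list.
Rps4x (chrX:102189362-102189441, minus strand): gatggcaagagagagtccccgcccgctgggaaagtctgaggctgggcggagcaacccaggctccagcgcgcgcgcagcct
Rpl10l (chr12:66284372-66284451, minus strand): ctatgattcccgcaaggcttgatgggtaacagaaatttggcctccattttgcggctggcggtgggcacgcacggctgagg

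Motifs of factors that bind many promoters were counted on both strands of the 300 bases from 250 before to 50 from the start. The ETS motif CCGGAA, bound by GABP and its relatives, was present in 32 of 64 member promoters (50%), against 19.1% of all genes with a listed start and 33.9% of the 6893 of them with an end region in both lists. The YY1 motif AANATGGC was present in 12 (18.8%, against 6.69% and 11.0%). The Sp1 motif GGGCGG was found in 38 (59.4%, against 46.3% and 67.6%), the NF-Y motif CCAAT in 19 (29.7%, against 39.0% and 40.0%), the Myc E-box CACGTG in 5 (7.81%, against 7.90% and 10.9%) and TATAAA in 7 (10.9%, against 13.3% and 6.40%). A match is a description of the letters only. The searched words can overlap a pyrimidine run, since the reverse of CCGGAA is read as TTCCGG. Rps3a1 and Rps7 are shown with the ETS motif in capitals, beside the paralogues Rps27l, which had an end region in each list, and Rpl39l, which had none.
Rps3a1 (chr3:86142639-86142718, minus strand): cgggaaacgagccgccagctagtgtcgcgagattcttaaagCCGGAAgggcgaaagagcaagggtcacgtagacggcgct
Rps7 (chr12:28635924-28636003, minus strand): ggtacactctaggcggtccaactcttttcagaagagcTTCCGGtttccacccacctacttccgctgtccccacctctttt
Rps27l (chr9:66946036-66946115, plus strand): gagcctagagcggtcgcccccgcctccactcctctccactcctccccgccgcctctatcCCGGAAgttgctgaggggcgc
Rpl39l (chr16:10170178-10170257, plus strand): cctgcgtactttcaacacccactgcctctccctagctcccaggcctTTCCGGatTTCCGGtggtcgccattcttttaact
Among the 58 members with a listed start and an end region in both lists, the authors' fold enrichment at the end region had a median of 17.1 in the BN1 list for the 30 with the ETS motif and 11.6 for the 28 without. In the control list these medians were 15.5 and 15.6. The same split was made for 5 other features. For a run over the start the medians with and without it were 15.2 and 11.8 in the BN1 list and 15.4 and 15.5 in the control list. With and without the Sp1 motif they were 14.5 and 11.7, and 16.3 and 14.1. The YY1 motif gave 13.6 and 13.5, and 18.5 and 15.1. The run anywhere near the start gave 13.3 and 14.1, and 15.8 and 14.4, and TATAAA, with 6 members, 11.8 and 14.0, and 8.62 and 16.3. The directions differed between features and lists, none was tested, and the widest end region lies away from the promoter at some members, such as Rps9 and Rplp0. Member promoters held 57.0% G and C at the median and 21 CpG dinucleotides, against 56.3% and 13 in all listed promoters and 61.3% and 22 in those of genes with an end region in both lists.

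**Figure D1:**
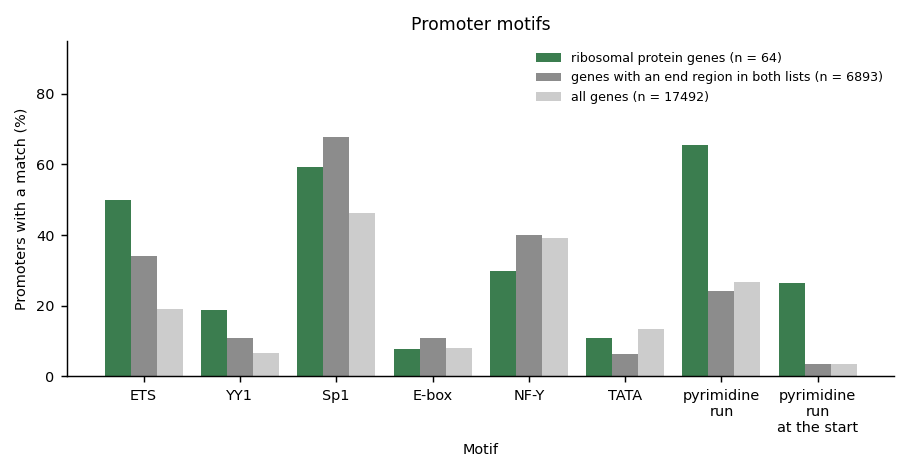
Share of promoters with at least 1 match to each motif (y axis, %) in the 64 ribosomal protein genes with a listed start, in the 6893 genes with an end region in both lists and in all 17492 genes with a listed start. The pyrimidine run stands at 65.6% in the ribosomal protein genes and at 26.9% in all genes, and the ETS motif at 50% and 19.1%.

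The first comparison asked which members were acetylated at a gene end in each list. An end region is a peak within 1000 bp of either end of the gene. It was present in both lists for 77 of 84 members (91.7%, 95% exact interval 83.6 to 96.6), against 38.4% of all protein-coding genes. In the control list only it was present for 4 members (4.76%, against 6.62%), in the BN1 list only for none (background 3.23%, and 0 of 84 allows a share of up to 4.30% by the exact interval), and in neither for 3 (3.57%, against 51.8%). Counted per list, the control list held one for 81 members (96.4%, against 45.0%) and the BN1 list for 77 (91.7%, against 41.6%). The 2 gene groups most like them were close, with end regions in both lists for 66 of 78 mitochondrial ribosomal protein genes (84.6%) and 35 of 39 proteasome subunit genes (89.7%). Intervals cover counting error only.

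The small subunit genes number 32, and 31 of them had an end region in each list. The exception was Rps4x, the X-linked gene of the small subunit protein S4. In the control list it had 1 peak, 682 bp wide, at a fold enrichment of 8.89 and a −log10 q of 15.8, and the summit lay 206 bp after the listed start. In the BN1 list the nearest peak to either gene end was 27288 bp away. That control peak was the narrowest end region among the members in its list.

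The other X-linked members, Rpl10, Rpl36a and Rpl39, had end regions in each list. Rpl36a had 1063 bp, 397 bp after the start at its summit, in the control list, and 382 bp with its summit at -513 bp in the BN1 list. These regions did not overlap. Its −log10 q in the BN1 list was 4.10, and with a minimum of 5 or 10 it was left in the control list only. Rpl39, a small protein near the exit of the peptide tunnel, had 1465 bp against 1250 bp, with a −log10 q of 8.37 and 38.4. Rpl10, a protein that joins the large subunit last, had 2774 against 1215 bp. With a −log10 q of at least 10, Rpl39 and Rps26 had an end region in the BN1 list only.

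The large subunit genes number 52, and 46 of them had an end region in each list, 3 in the control list only and 3 in neither. The 3 in the control list only were Rpl17, Rpl19 and Rpl22, and all of them also had a peak of the BN1 list near the gene. For Rpl17 the control peak began 999 bp from one annotated gene end. The BN1 peak, with 1611 bp, lay 1263 bp from the opposite end, which was its nearer one. Rpl17 was thus just inside the 1000 bp limit in the control list and outside it at both ends in the BN1 list. Rpl22 is an RNA-binding protein of the large subunit also studied in T cell development. Its control and BN1 peaks lay 559 and 1463 bp from the same gene end. For Rpl19 the counted control peak of 1196 bp had its summit at -3521 bp from the listed start. Peaks of 2131 and 1596 bp, with summits 386 and 449 bp after that start, were found in the control list and the BN1 list. Counted within 1000 bp of the listed start in place of the gene ends, 59 of 64 members had a peak in both lists, and Rps4x alone had one in the control list only. This count by the start was not made over all genes, so it has no background to be judged against.

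The 3 members without an end region were Rpl10l, Rpl39l and Rpl32l. Rpl10l and Rpl39l are copies of Rpl10 and Rpl39 known from male germ cells, and both had no peak within 10 kb in either list. The nearest control peaks lay 423127 and 18226 bp from their ends. Rpl32l had 1 peak, 880 bp wide, in the BN1 list, 2654 bp from the gene. Rpl3l, the muscle copy of Rpl3, was counted in both lists, yet its start was bare. Its peaks, of 2184 bp in the control list and of 867 and 1034 bp in the BN1 list, lay at its other end, and the widest of each list was within 1000 bp of an end of the neighbouring gene Msrb1. The copies Rpl7l1, Rpl22l1 and Rps27l had end regions in each list, as had Rpl36al, which the symbol rule leaves out. Rps27rt, also outside the rule, had no region in either list. Without the 6 copies and Rpl32l, all of the 77 remaining members had an end region in the control list and 73 of them in the BN1 list.

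Widths of the end regions were compared next, taking the widest peak per gene. In the control list they ran from 682 to 4414 bp with a median of 1792 bp (quartiles 1334 and 2239), and in the BN1 list from 382 to 3677 bp with a median of 1311 bp (quartiles 1003 and 1662). Of the 77 members with an end region in both lists, 67 (87.0%) were wider in the control list, against 66.3% of all such genes, and the other 10 in the BN1 list. Wider in the control list were also 28 of 35 proteasome genes (80%) and 43 of 66 mitochondrial ribosomal protein genes (65.2%). The median ratio of widths, control over BN1, was 1.38 for the members, 1.14 for all such genes, 1.21 for mitochondrial ribosomal protein genes and 1.13 for proteasome genes. The difference between these ratios was not tested. The whole lists had nearly the same median peak width, 755 and 739 bp.

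The widest end regions of the control list were at Rps15a (4414 bp against 1841 bp in the BN1 list), Rpl12 (3778 against 1804), Rpl18 (3646 against 3677), Rpl10a (3571 against 1330) and Rpl7 (3193 against 2317). In the BN1 list they were at Rpl18, at Rpl41, the gene of the smallest ribosomal protein (2665 bp against 2296 bp in the control list), at Rpl27a (2604 against 2664), at Rpl7 and at Rpl21 (2097 against 1035). Some of these regions reach another gene: the peaks of Rps15a, Rpl12, Rpl18, Rpl10a and Rpl7 in the control list lay within 1000 bp of an end of Arl6ip1, Lrsam1, Sphk2, Fance and Rdh10. The same holds for 27 of 81 member end regions in the control list (33.3%, against 32.0% of all genes with an end region) and for 22 of 77 in the BN1 list (28.6%, against 32.0%). Members did not differ from other genes in this by more than a few percentage points.

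Among the narrowest control end regions after Rps4x were those at Rpl6 (803 bp, against 712 bp in the BN1 list), Rpl23a (882 against 407) and Rpl22l1 (940 against 486). In the BN1 list the narrowest were at Rpl36a, Rpl23a, Rps12 (436 bp, against 1969 bp in the control list), Rpl22l1 and Rps24 (644 against 1037). At Rps12 the wide control region faced 2 separate peaks of 415 and 436 bp.

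**Figure D2:**
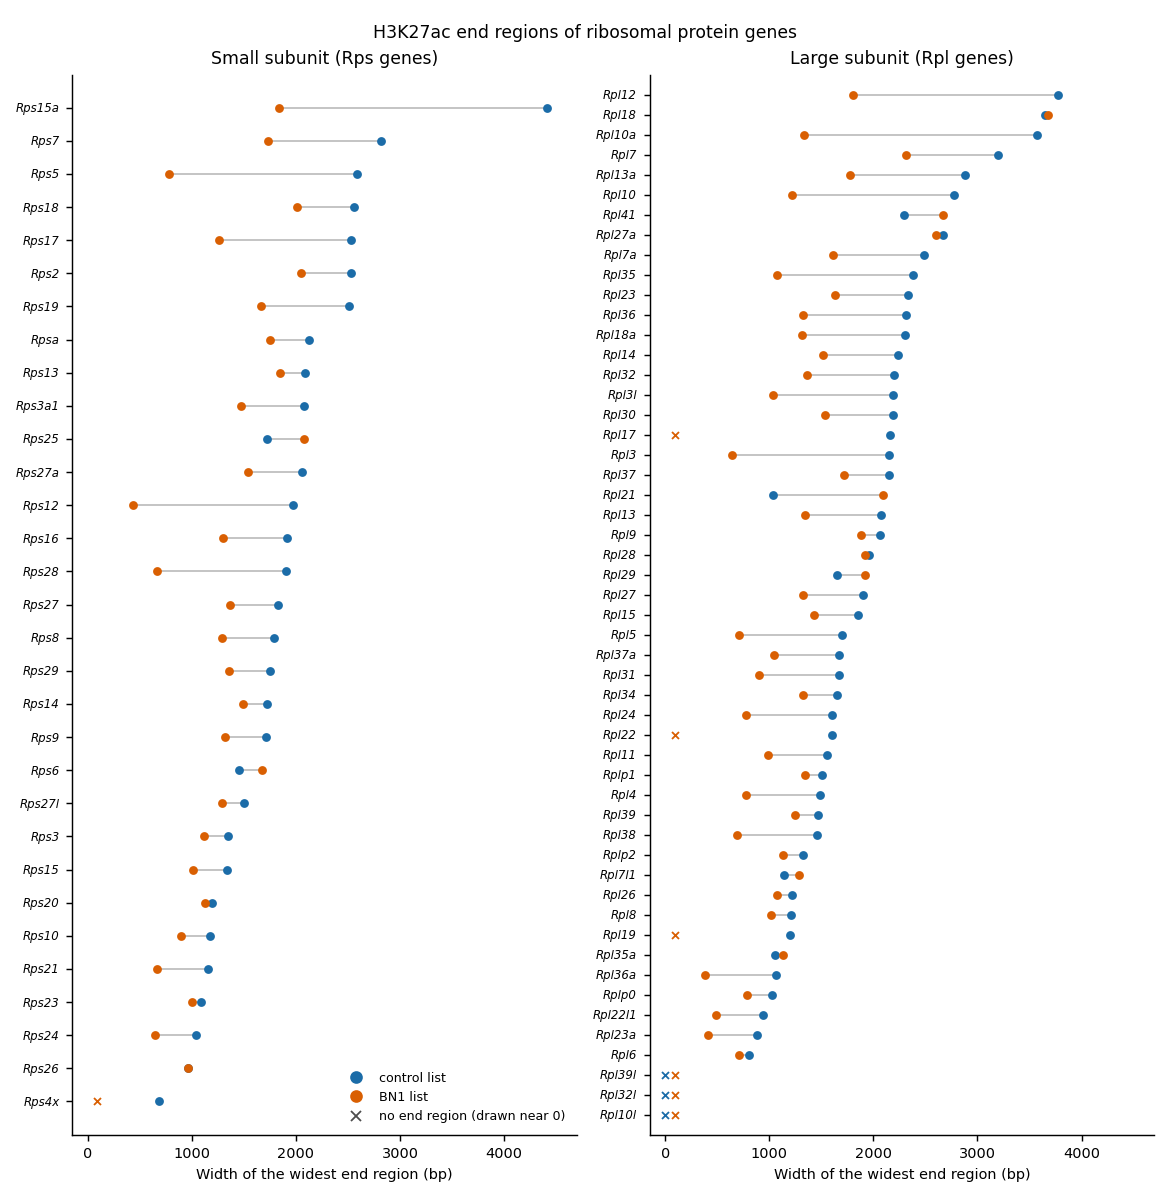
Width of the widest end region (x axis, bp) of each ribosomal protein gene, small subunit on the left and large subunit on the right, with the control list in blue and the BN1 list in orange. Crosses near 0 stand for no end region, and 1 small subunit gene is not drawn. The end region is wider in the control list for 67 genes, and Rpl10l, Rpl32l and Rpl39l have crosses for both lists.

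The height of the regions was described within each list by the fold enrichment that the authors' peak caller gave. In the control list the members' end regions had a median of 16.0 (range 3.32 to 47.5), against 11.8 for all genes with an end region, 10.4 for mitochondrial ribosomal protein genes and 11.6 for proteasome genes. The top 10% of all peaks of that list held 32 of 81 member end regions (39.5%), against 24.1% of all end regions. In the BN1 list the median was 14.8 (range 4.05 to 81.3), against 12.5, 10.1 and 10.6, and 19 of 77 (24.7%) were in the top 10%, against 21.4%. The members' share of high peaks was thus above the background in the control list and close to it in the BN1 list.

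The highest end regions of the control list were at Rps3a1 (47.5), Rpl21 (46.1), Rpl32 (45.3), Rpl17 (44.8) and Rps6 (39.5), the gene of the small subunit protein phosphorylated by S6 kinase. In the BN1 list they were at Rpl21 (81.3), Rps27 (54.2), Rps3a1 (48.4), Rpl30 (37.7) and Rpl32 (35.4). Rpl21, Rpl32 and Rps3a1 stood in both sets. The lowest were at Rps9 (3.32), Rpl7l1 (3.87), Rps26 (5.07), Rps2 (5.71) and Rpl39 (6.18) in the control list. In the BN1 list they were at Rpl36a (4.05), Rps21 (4.46), Rps24 (4.66), Rps12 (4.80) and Rpl4 (5.43). For Rps9 the widest control peak, of 1714 bp, lay at the opposite end of the gene from the peak taken in the BN1 list. Across the 77 members with both values, ranks of fold enrichment in the lists had a Spearman correlation of 0.66 and ranks of width one of 0.59, and over all 8395 genes with both values these were 0.58 and 0.61. Within a list the points share 1 library, and neighbouring genes can share a peak.

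**Figure D3:**
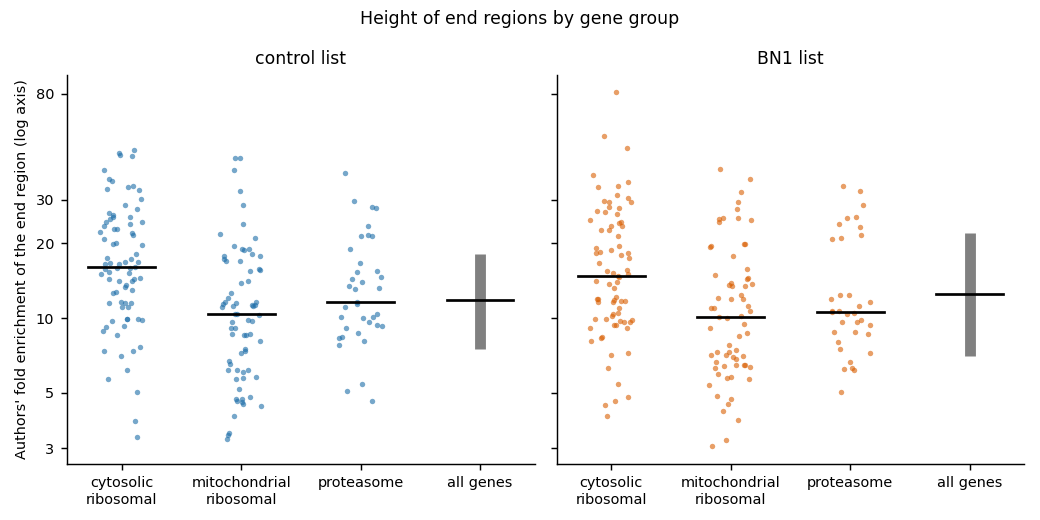
The authors' fold enrichment of the widest end region (log y axis) in each list for cytosolic ribosomal, mitochondrial ribosomal and proteasome genes, 1 point per gene, with black lines at the medians. The grey bar gives the quartiles over all genes with an end region. The cytosolic ribosomal medians, 16.0 and 14.8, lie above those of the other groups drawn. The cytosolic ribosomal points spread from 3.32 to 47.5 in the control list and from 4.05 to 81.3 in the BN1 list.

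The summits lay at nearly the same distance from the start in both lists, while fewer starts were covered in the BN1 list. The listed start itself lay inside a peak for 56 of 64 members in the control list (87.5%, against 37.5% of all genes with a listed start) and for 48 in the BN1 list (75%, against 33.7%). Of 32 proteasome genes with a listed start, 27 (84.4%) and 22 (68.8%) were covered there. For 69 mitochondrial ribosomal protein genes these counts were 50 (72.5%) and 40 (58.0%), so the lower BN1 share is shared with both groups. Summits of the members' peaks over the start lay 194 bp after it at the median in the control list (quartiles 115 and 263) and 184 bp after it in the BN1 list (quartiles 114 and 215). Over all genes the medians were 156 and 150 bp. Between 100 and 400 bp after the start lay 40 of 56 summits (71.4%, against 51.3%) and 35 of 48 (72.9%, against 58.6%). Proteasome genes had 21 of 27 (77.8%) and 17 of 22 (77.3%) there, and mitochondrial ribosomal protein genes 25 of 50 (50%) and 16 of 40 (40%), so this position is shared with the proteasome genes.

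Peaks reached farther into the gene than before it. In the control list the peak over the start ran from -640 to 1194 bp around it at the median, and in the BN1 list from -444 to 898 bp. Over all genes the median edges were at -576 and 876 bp in the control list and at -499 and 810 bp in the BN1 list. At 1000 bp after the start 62.5% of the 64 members were covered in the control list against 31.2% in the BN1 list, and over all genes 17.1% and 12.4%. At 200 bp after it the shares were 93.8% and 87.5%.

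Starts covered in the control list but not in the BN1 list were those of Rpl5, Rpl10, Rpl13, Rpl22, Rpl27, Rps3, Rps21 and Rps28, and no member showed the opposite. Among the 64 members with a listed start the counts were thus 8 and 0. Over all 17492 genes with a listed start, 1390 were covered in the control list only and 713 in the BN1 list only. The difference was not tested. The share of covered starts was also lower in the BN1 list for proteasome and mitochondrial ribosomal protein genes. All of the 8 starts had a BN1 peak within 200 bp. It lay after the start at 6 of them, 20 bp away for Rpl13, 43 for Rps21, 50 for Rps3, 57 for Rpl5, 167 for Rpl27 and 173 for Rpl22. It lay before the start at Rps28, 20 bp away, and Rpl10, 130 bp away. These starts thus stood close to the border of a BN1 peak. Of the 77 members with an end region in both lists, the widest regions overlapped in 73, with a median overlap of 68.0% of their union. Over all 8395 such genes they overlapped in 7977, with a median of 70.3%, so the members were close to the background. Summits were within 100 bp of each other in 50 of the 77 members (64.9%, against 57.2% of all such genes). The 4 members without overlap of the widest regions were Rpl36a, Rplp0, Rps9 and Rps21.

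**Figure D4:**
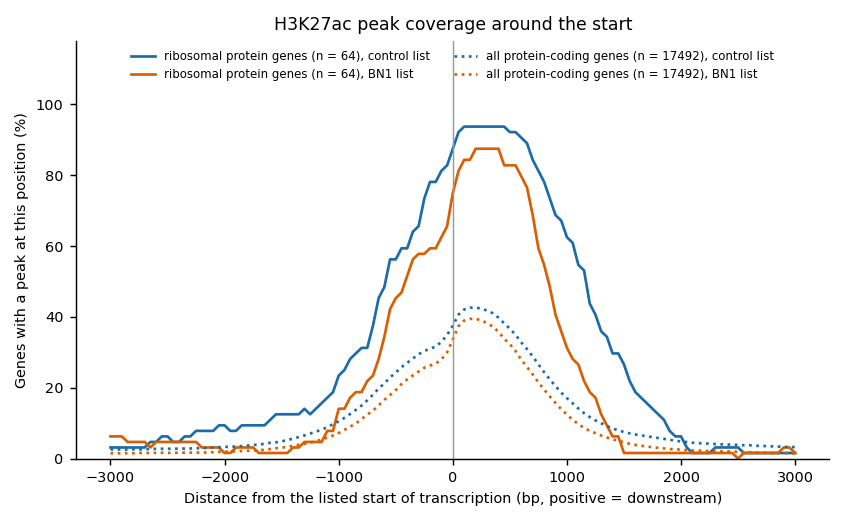
Share of genes with a peak at each position (y axis, %) from 3000 bp before to 3000 bp after the listed start of transcription (x axis, bp) for the 64 ribosomal protein genes (solid) and all 17492 genes (dotted), with the control list in blue and the BN1 list in orange. Both solid curves peak just after the start, at 93.8% and 87.5%, and at 1000 bp after it stand at 62.5% and 31.2%.

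The acetylated length around each gene, the bp covered by peaks from 10 kb before to 10 kb after it, was set side by side next. Of the 82 members with any region, 68 (82.9%) had more in the control list, against 70.7% of the 13606 genes with a region, and the other 14 more in the BN1 list (background 29.3%). More in the control list was also found for 62 of 78 mitochondrial ribosomal protein genes (79.5%) and 30 of 39 proteasome genes (76.9%), close to the members. The members' medians were 2521 and 1706 bp, and BN1 minus control came to -652 bp at the median (-457 bp over all genes). Per Mb of each list's covered length the medians were 81.2 and 89.2 bp, the median difference was 9.93 bp per Mb (10.2 over all genes), and 52 of 82 members were higher in the BN1 list, against 58.2% of all genes. The direction thus turned with the scale, as it did for all genes. In bp the members' median difference was the larger, and per Mb it was close to that of all genes.

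At least 2-fold longer in the control list were 18 of 82 members (22.0%, against 33.9%) and in the BN1 list 2 (2.44%, against 10.5%). Mitochondrial ribosomal protein genes and proteasome genes had 20.5% each in the control list and 3.85% and 2.56% in the BN1 list, close to the members. Per Mb the members' counts were 5 and 5 (6.10% each, against 22.8% and 19.0%), with 14.1% and 12.8% of mitochondrial ribosomal protein genes and 15.4% and 15.4% of proteasome genes. The longest excess in the control list was at Rpl38, known for its part in the translation of patterning genes (6467 against 686 bp), Rps9 (8124 against 2634), Rpl3, which lies at the peptidyl transferase centre (6075 against 1249), Rpl12 of the stalk base (8049 against 4709) and Rpl10 (5433 against 2234). Much of it lay outside the genes. Within the body Rpl38 had 1459 against 686 bp, Rps9 2538 against 1301 bp, Rpl3 2051 against 603 bp and Rpl12 1947 against 978 bp. Rpl10 had 1594 bp in its body in the control list and no BN1 peak there. The other control peaks in the window of Rpl38 began at least 3097 bp past its end.

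In the other direction stood Rpl21 (1328 bp in the control list and 2628 bp in the BN1 list), Rps19 (2510 and 3662), Rpl32l (0 and 880), Rpl6 (803 and 1666) and Rpl41 (2296 and 2969). Within the body Rps19 was shorter in the BN1 list, with 1147 against 1860 bp, and so was Rpl6, with 712 against 803 bp. Rpl21 was longer there in the body too, with 1374 against 793 bp.

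**Figure D5:**
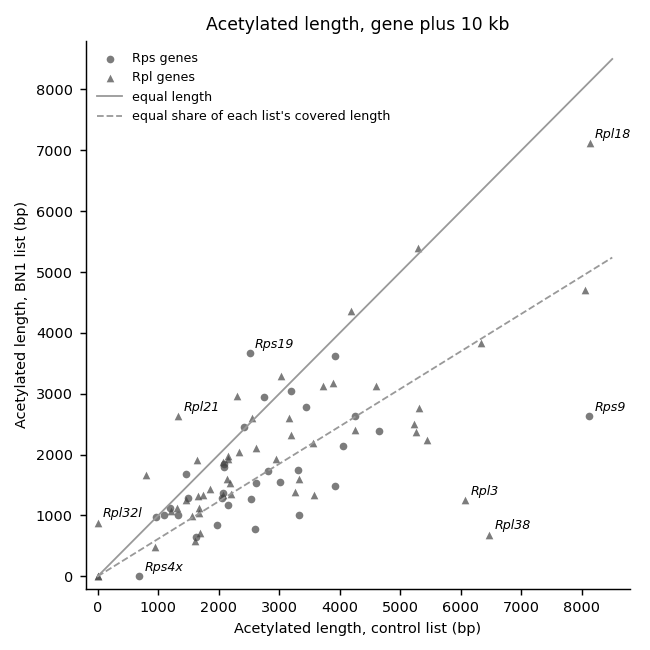
Acetylated length within the gene plus 10 kb (bp) in the control list (x axis) and the BN1 list (y axis), 1 point per ribosomal protein gene. The solid line marks equal length and the dashed line an equal share of each list's covered length, which differ 1.62-fold. Of 82 genes with a region, 68 lie below the solid line, and Rpl38, Rps9 and Rpl3 lie farthest below it.

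The members are short, with a median length of 3179 bp against 17169 bp over all protein-coding genes, so an end region fills much of the gene. Peaks of the control list covered 39.2% of the gene body at the median, and 5.12% over all genes with an end region. The BN1 values were 26.2% and 3.89%. Over 50% of the body was covered in 29 members of the control list and 12 of the BN1 list. No such count was made over all genes, so these member counts have no background to be judged against. Small nucleolar RNA genes, which guide the modification of ribosomal RNA and are cut from introns, lay inside 30 of 84 members (35.7%, against 1.70% of all protein-coding genes), 59 of them in all. Rpl4 held the most, 5. An end region in each list was found for 29 of the 30 hosts, close to the 77 of 84 (91.7%) of all members (all genes 38.4%).

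A list of 15 members known from Diamond-Blackfan anaemia or the 5q syndrome, which does not hold every such gene, had an end region in each list for all of the 15 (all members 91.7%, all genes 38.4%). Their end regions had a median width of 1718 bp in the control list and 1131 bp in the BN1 list, and 13 (86.7%) were wider in the control list, close to the 87.0% of all members with both (all genes 66.3%). Rps19, the gene most often mutated in Diamond-Blackfan anaemia, had 2510 and 1662 bp. Rps14, the gene of the 5q syndrome, had 1718 and 1488 bp, and Rpl5 and Rpl11, which with the 5S RNA bind the p53 regulator MDM2, had 1694 and 709 bp and 1553 and 988 bp. The exceptions were Rpl35a (1053 and 1131 bp) and Rps26 (960 and 968 bp). The 3 P stalk genes, whose proteins recruit elongation factors, also had end regions in each list, of 1502 and 1344 bp at Rplp1 and 1324 and 1130 bp at Rplp2. At Rplp0 the widest regions, of 1023 and 790 bp, lay at opposite gene ends with summits 5479 bp apart and are no comparison of 1 region. The peak over its start ran from -208 to 669 bp in the control list and from -64 to 725 bp in the BN1 list.

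Fau and Rack1, ribosomal protein genes outside the symbol rule, had end regions in each list too. Fau, which encodes a small subunit protein fused to a ubiquitin-like protein, had widths of 1405 and 1170 bp, and Rack1, a scaffold on the small subunit, 3063 and 2059 bp. Of the rest of the translation machinery, 28 of 28 initiation factors and 7 of 7 elongation and termination factors had an end region in each list (background 38.4%). So had all of the 9 other genes with an oligopyrimidine tract that were found in the annotation, among them Eef1a1 and Tpt1. Of these lists the initiation factors had a median width of 1664 bp in the control list and 1668 bp in the BN1 list, with a median ratio of 1.10 and 16 of 28 wider in the control list. The elongation and termination factors had a ratio of 1.16 and 5 of 7 wider there, and the other oligopyrimidine tract genes a ratio of 1.11 and 9 of 9. The ribosomal protein genes had a ratio of 1.38 in the same libraries, and these differences were not tested.

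Ribosome biogenesis genes had an end region in each list for 36 of 42, with a median ratio of widths of 1.14. End regions were in the control list only at Noc2l and Rrp9, in the BN1 list only at Heatr1 and Noc3l, and in neither at Ubtf and Polr1b. Of 12 mTOR and Myc regulators of translation, 10 had one in both lists, and Larp1 and Larp4, the messenger-binding proteins, had none in either. Of 8 factors known at ribosomal protein promoters, 6 had one in both lists, Gtf2i in the BN1 list only and Gabpb1, a GABP subunit, in neither. The listed start nevertheless lay inside a peak for all of the 8 in each list (all genes 37.5% and 33.7%). For Gtf2i and Gabpb1 the missing end regions therefore concern the annotated gene ends and not the listed start. Peaks lay inside several of these genes away from their ends. They covered 2835 bp of Larp1 in the control list and 2307 bp in the BN1 list, 2431 and 1510 bp of Larp4, 5284 and 4587 bp of Ubtf, 3226 and 3027 bp of Gabpb1 and 2329 and 2447 bp of Gtf2i.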

How the data were processed

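H3K27ac ChIP was compared through 1 narrowPeak list per group, assigned by the sample titles; the input libraries were not analysed here. The submitters' processing notes name the build mm10 and, with no role or order, MACS3 3.0.1, deepTools 3.5.1, Picard 3.2.0 and Bowtie2 2.5.4. Peak thresholds, pooling and the use of input were not given in these sources. In the deposited lists each peak has a fold enrichment (a linear ratio), −log10 p and q values, a score and a summit. The deposited score lay within 1 of 10 times the −log10 q in 100% of peaks and was not used. The deposited −log10 p was not used either, and the −log10 q served for filters.

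Genes, both gene ends and, for 64 members, the start and promoter sequence came from RefSeq tables of GRCm38.p6; where several starts are listed the first was taken. The other 20 members have no entry in the promoter table. Peaks were intersected with pandas 2.3.3 and numpy 2.4.6 under Python 3.11.15, intervals came from scipy 1.17.1, and the code was checked on simulated peaks with known answers. Depth is unknown; with 1 library per group no test was made. Members, gene lists and the rule for named genes (members whose end regions differ, the 5 extremes of width, fold enrichment and length difference, anaemia genes and paralogues) were chosen with earlier results of these data known. Alternatives were −log10 q minimums of 5 and 10, lists of equal length, numbered chromosomes, other windows, flanks, scales, overlaps and peaks per gene, and a shorter promoter window. Gas5 and Rps4l were not found among the protein-coding genes. Values of single genes withheld from the text are not reported here, and counts and medians include them.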

Additional observations from a re-analysis of the deposited data

How the results depend on the processing

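Of 102 values recomputed under the alternatives, 86 stayed within 1.5 times the reported count or within the reported value's 95% binomial interval (for medians, from order statistics), 15 moved and 1 reversed. The median difference in acetylated length, -652 bp, became 9.93 bp per Mb of covered length. Without flanks it was -301 bp, with medians of 1238 bp in the control list and 899 bp in the BN1 list, and with 50 kb flanks -1149 bp, with 5111 and 3401 bp, since the window itself changes. Members with an end region in the control list only, 4 by the main rule, were 2 with a window of 500 or 2500 bp and 1 by the listed start, and those with none in either list, 3, were 8 with a window of 500 bp. At a −log10 q of at least 10, 2 members had an end region in the BN1 list only. With 50% reciprocal overlap 72.8% of member end regions in the control list and 77.9% of those in the BN1 list were shared, against 96.3% and 98.7% at 1 bp. At a −log10 q of at least 5 the latter was 100%. Promoters with an E-box fell from 5 to 2 in the shorter window. Medians of width, fold enrichment and summit position stayed within their intervals under the settings run. No paired analysis was possible because each group has 1 library, so no replicate could be left out either.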
